A study of Mus musculus with 4 samples.

Results

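The genes described here are 10 that encode the transforming growth factor beta (TGF-beta) ligands, their receptors and the proteins that keep the ligands latent: Tgfb1, Tgfb2, Tgfb3, Tgfbr1, Tgfbr2, Tgfbr3, Ltbp1, Ltbp2, Ltbp3 and Ltbp4. They were chosen by gene name from the 55228 genes of the deposited count table, with earlier results of these data known. The 4 libraries, 2 labelled Trim28 KO and 2 labelled WT, held RNA of rib cartilage from mouse embryos of strain C57BL/6 at E17.5. The protein TRIM28 represses transcription where KRAB zinc finger proteins recruit it. How and in which cells Trim28 was removed, and whether embryos were pooled, is not in the labels, which therefore do not say how far a difference arises within cartilage cells.

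TGF-beta ligands are secreted bound to their own propeptide. Latent TGF-beta binding proteins (LTBPs) attach this complex to the matrix, from which integrins or proteases release the ligand. The free ligand binds TGFBR2, which recruits and phosphorylates TGFBR1, and TGFBR1 activates SMAD2 and SMAD3; TGFBR3, or betaglycan, presents ligand and is needed above all for TGF-beta 2. In cartilage this signal is known to promote chondrocyte differentiation and to slow hypertrophy, and perichondrium and bone matrix are rich sources of the ligands.

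Total counts ran from 18616896 to 19903917 in Trim28 KO and from 19493435 to 20082123 in WT. Trim28 had 51.1 and 54.5 CPM in Trim28 KO, against 225 and 186 CPM in WT, which matched the labels. CPM, a gene's share of a library's counts, is scaled here between libraries with TMM factors (trimmed mean of M-values). Libraries of 1 genotype differed by more than sampling noise, with a chi-square per degree of freedom of 24.6 in Trim28 KO and 30.6 in WT. Whether they stem from separate embryos is not in the labels, and the p-values therefore rest on a spread between libraries that may be technical. The 7 chondrocyte markers, among them Col2a1 and Acan, summed to 70841 and 90588 CPM in Trim28 KO and to 96708 and 70199 CPM in WT. Col2a1 alone made up 79.1% to 82.9% of these sums. Without it the other 6 summed to 12141 and 16200 CPM in Trim28 KO, against 17077 and 14687 CPM in WT. None of the 7 was called.

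All 10 genes passed the filter on low counts, with at least 355 counts in every library. Of the 10, 2 rose in Trim28 KO (Tgfb3 and Ltbp1), 2 fell (Tgfb1 and Tgfbr3) and 6 did not pass the test. Called means an adjusted p under 0.05 in edgeR's quasi-likelihood test. Over all 16639 genes tested 17.4% were called, 8.64% higher and 8.77% lower. Since the 10 genes were chosen with earlier results known, their share of calls is a description and not a test. The genotypes did not overlap in 6 of the 10 genes, against 58.0% of all genes tested. The median log2 fold change of the 10 genes was -0.17, and that of all genes tested was -0.02. Fewer cells of a type and less RNA per cell cannot be told apart in these libraries.

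Compared per length, the 10 genes fell into an upper and a lower range. Levels between genes are given as FPKM, the TMM-scaled CPM per kilobase of exon. Ltbp3 (41.5 to 58.6 FPKM over the 4 libraries), Ltbp4 (33.0 to 54.8) and Tgfb3 (26.5 to 52.8) stood above the other 7 in every library. The ranges of these 3 overlapped, although Ltbp3 was the highest of them within each library. Tgfb3 was above Ltbp4 in both Trim28 KO libraries and below it in both WT libraries. Tgfb1 (10.1 to 21.9 FPKM), Ltbp2 (11.4 to 17.7) and Tgfbr2 (9.94 to 13.8) also overlapped one another. Tgfb2 (7.42 to 9.03 FPKM), Ltbp1 (5.95 to 10.4), Tgfbr1 (5.08 to 6.83) and Tgfbr3 (2.79 to 8.09) were the lowest of the 10 within each library. Across libraries the range of Ltbp1 overlapped those of Tgfb1 and Tgfbr2. By group means Tgfbr3 was last in Trim28 KO, whereas Ltbp1 was last in WT.

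**Figure D1:**
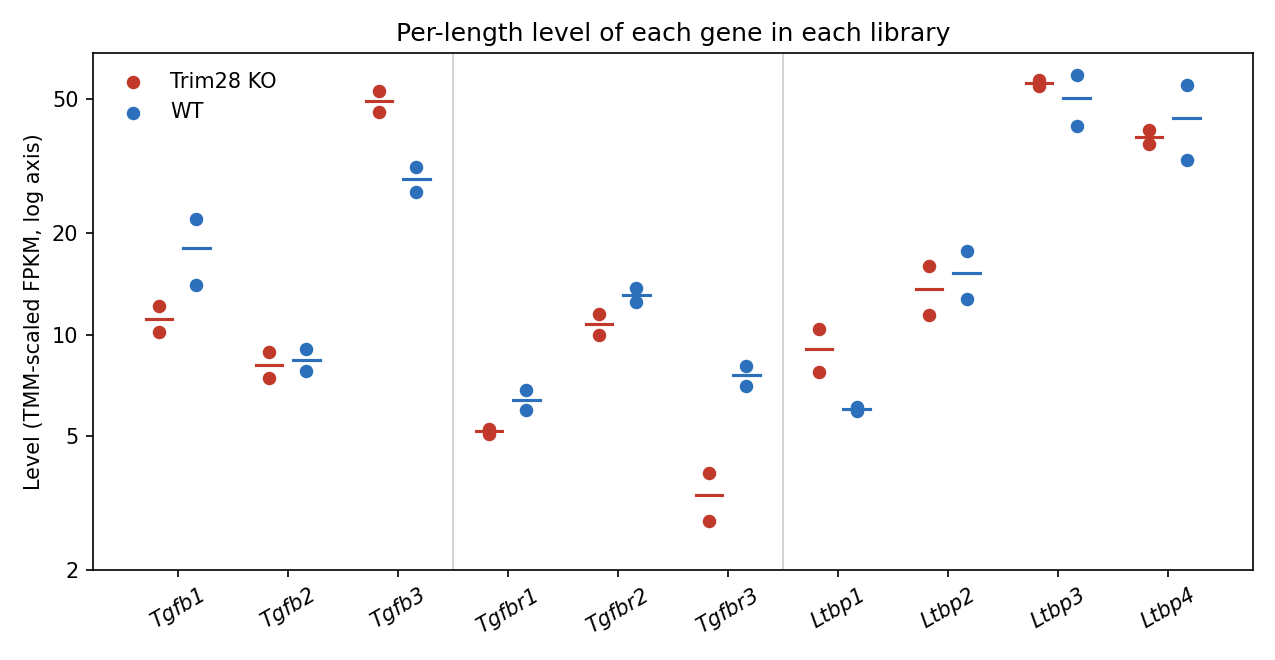
Level of each of the 10 genes in each library, as TMM-scaled FPKM on a log axis; points are libraries (Trim28 KO left, WT right of each gene) and short lines are group means, n = 2. Tgfb3 and Ltbp1 sit higher in both Trim28 KO libraries, Tgfb1 and Tgfbr3 higher in both WT libraries, and the 2 WT libraries of Tgfb1, Ltbp3 and Ltbp4 stand far apart.

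The ligand genes moved apart: Tgfb3 rose, Tgfb1 fell and Tgfb2 was not called. Tgfb3 encodes the ligand known for palate fusion and is abundant in developing cartilage. It had 155 and 179 CPM in Trim28 KO, against 106 and 89.7 CPM in WT. Both Trim28 KO libraries were higher than both WT libraries. The rise was 1.70-fold (0.77 ± 0.20 on the log2 scale, SE with 2 libraries a genotype, edgeR adjusted p = 0.00864). Without Trim28 KO 2 the log2 fold change was 0.66 and the call was lost (adjusted p = 0.0917 by the same test). Tgfb3 lies on chromosome 12 from 86056745 to 86079041 on the minus strand of GRCm38. In the GENCODE M21 annotation 12.4% of its exon bases are shared with Gm37804 or Gm48008, loci on the other strand. Each of these loci had between 2 and 8 counts per library. These counts do not show how many fragments over the shared bases were left uncounted for Tgfb3.

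Tgfb1 encodes the ligand stored in bone matrix and made by many cell types, platelets and macrophages included. It had 51.1 and 61.1 CPM in Trim28 KO, against 111 and 70.9 CPM in WT. The genotypes did not overlap, but the WT libraries differed from each other by more than WT 2 differed from either Trim28 KO library. The fall was 1.62-fold (-0.69 ± 0.22 on the log2 scale, SE with 2 libraries a genotype, edgeR adjusted p = 0.0293). The call rested on WT 1: without it the log2 fold change was -0.31 (adjusted p = 0.371 by the same test). It was also lost without Trim28 KO 1 (-0.56, adjusted p = 0.291) or Trim28 KO 2 (-0.82, adjusted p = 0.0922, all edgeR). Tgfb1 lies on chromosome 7 (plus strand, 25687002 to 25705077).

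Tgfb2, which encodes the ligand that depends most on betaglycan, lies on chromosome 1 from 186622792 to 186705989 on the minus strand. It had 42.9 and 51.4 CPM in Trim28 KO, against 52.3 and 45.0 CPM in WT. The genotypes overlapped, and the log2 fold change was -0.04, with a 95% interval of -0.43 to 0.34 (edgeR adjusted p = 0.902).

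The makeup of the ligand transcripts within each library differed between genotypes. Of the summed counts per kilobase of the 3 ligand genes, Tgfb3 took 72.2% and 71.5% in Trim28 KO, against 50.3% and 54.8% in WT. Tgfb1 took 16.0% and 16.4% in Trim28 KO, against 35.2% and 29.1% in WT. These shares do not depend on scaling between libraries. Tgfb3 exceeded Tgfb1 by 4.51 and 4.35 times in Trim28 KO, against 1.43 and 1.89 times in WT. This ratio was higher in both Trim28 KO libraries, and the log2 ratio differed by 1.43. An exact two-sided permutation test over 2 against 2 libraries cannot go below p = 0.333, which is the value for this ratio and for the share of each ligand; 10 ratios were computed, and the adjusted p of this one was 0.417 by the same exact test. The summed level of the 3 ligands was 63.3 and 73.8 FPKM in Trim28 KO, against 62.4 and 48.3 FPKM in WT.

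**Figure D2:**
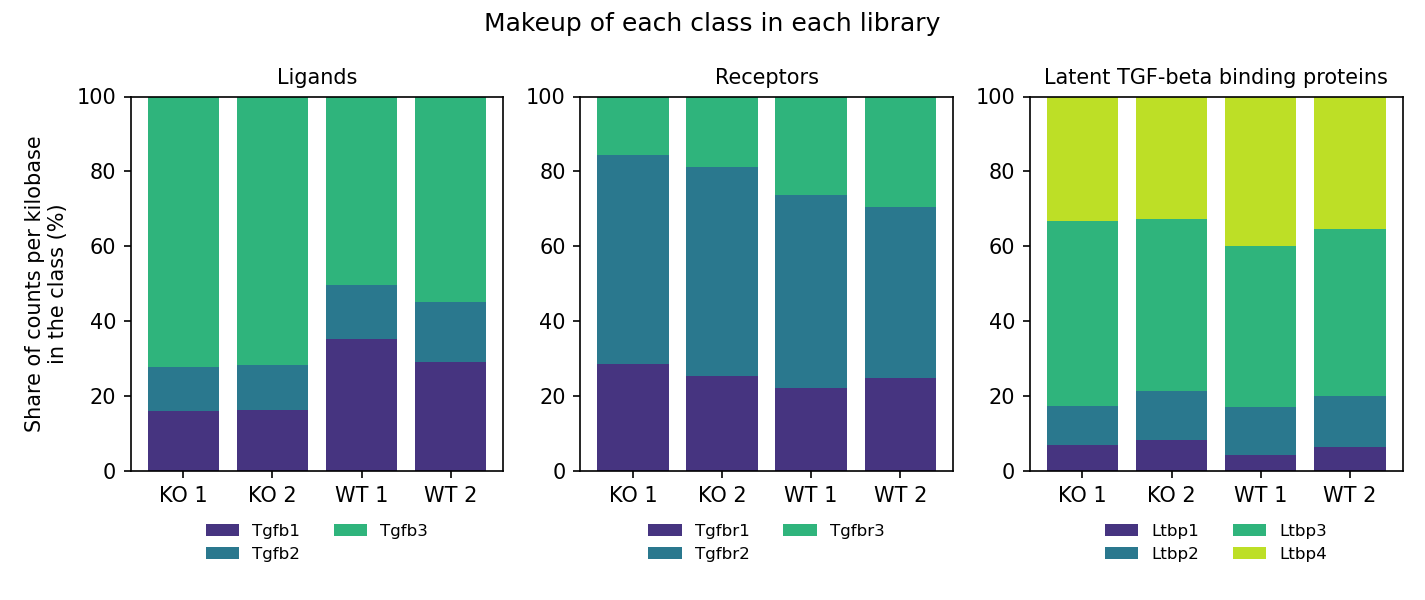
Share of each gene, in percent, in the counts per kilobase of its class (3 ligand, 3 receptor and 4 LTBP genes) in each library, Trim28 KO left and WT right. Tgfb3 makes up 72.2% and 71.5% of the ligand bar in Trim28 KO, against 50.3% and 54.8% in WT, and Tgfbr3 is the receptor whose share is smaller in Trim28 KO.

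The start regions of Tgfb1 and Tgfb2 are shown because these ligand genes differ in the letters before their starts. The RefSeq promoter table (GRCm38.p6, 250 bases before to 50 after a start) held 8 of the 10 genes; Tgfb3 and Tgfbr3 were the others. Capitals mark a match on either strand to the GC box with letters GGGCGG, the TATA box core with letters TATAAA, the E-box with letters CACGTG, or the cyclic AMP response element with letters TGACGTCA; no matches to different motifs overlap in the sequences shown. Tgfb1 is read from the plus strand at chr7:25686752-25687051 and Tgfb2 from the minus strand at chr1:186705940-186706239.
Tgfb1: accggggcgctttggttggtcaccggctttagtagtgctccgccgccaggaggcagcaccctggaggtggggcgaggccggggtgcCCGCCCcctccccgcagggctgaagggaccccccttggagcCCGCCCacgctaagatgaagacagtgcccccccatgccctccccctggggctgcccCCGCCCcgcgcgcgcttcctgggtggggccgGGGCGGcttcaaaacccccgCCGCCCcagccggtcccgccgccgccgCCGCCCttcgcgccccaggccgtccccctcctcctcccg
Tgfb2: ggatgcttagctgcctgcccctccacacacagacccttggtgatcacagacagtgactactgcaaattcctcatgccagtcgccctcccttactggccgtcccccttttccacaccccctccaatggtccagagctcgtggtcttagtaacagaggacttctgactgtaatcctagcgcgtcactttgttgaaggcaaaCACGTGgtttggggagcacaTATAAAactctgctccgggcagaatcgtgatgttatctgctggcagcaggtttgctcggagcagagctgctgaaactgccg
The Tgfb1 window is 77.0% G and C and holds 6 GC boxes, with no TATA box core and no E-box. The Tgfb2 window is 54.3% G and C and holds a TATA box core that begins 31 bases before the start (position -31) and an E-box at position -51, with no GC box. Of all 32851 promoters in the table, 35.7% hold a GC box, 13.6% a TATA box core, 7.15% an E-box and 1.79% the cyclic AMP response element. Of the uncalled genes, Ltbp4, Ltbp2 and Tgfbr1 also have windows with GC boxes, and Tgfb2, Tgfbr2 and Ltbp3 have none. The called gene Ltbp1 has none either. A match is a description of letters, and no factor was measured at these windows.

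Among the receptors, the co-receptor gene Tgfbr3 fell and both signalling receptor genes were not called. Tgfbr3 had 18.3 and 25.5 CPM in Trim28 KO, against 46.0 and 52.9 CPM in WT. The genotypes were well apart, and the gap between them exceeded the difference within either genotype. The fall was 2.26-fold (-1.18 ± 0.20 on the log2 scale, SE with 2 libraries a genotype, edgeR adjusted p = 1.72e-04). Of the 4 called genes of the 10, Tgfbr3 was the 1 that kept its call without each library in turn, with log2 fold changes from -1.43 (without Trim28 KO 2) to -0.95 (without Trim28 KO 1). Tgfbr3 lies on chromosome 5 from 107106570 to 107289629 on the minus strand.

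Tgfbr2, the receptor that binds the ligand first, had 81.4 and 94.4 CPM in Trim28 KO, against 113 and 102 CPM in WT. Its log2 fold change was -0.29 (95% interval from -0.69 to 0.11, edgeR adjusted p = 0.340). Tgfbr1, the kinase that acts on the SMAD proteins, had 33.2 and 34.4 CPM in Trim28 KO, against 39.0 and 44.6 CPM in WT. Its log2 fold change was -0.31 (95% interval from -0.69 to 0.07, adjusted p = 0.273 by the same edgeR test). For both receptors each Trim28 KO library was lower than each WT library, as in 58.0% of all genes in 1 direction or the other, and neither difference passed the test. Tgfbr2 lies on chromosome 9 from 116084293 to 116175360 (minus strand) and Tgfbr1 on chromosome 4 from 47353222 to 47414931 (plus strand).

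Per length, Tgfbr1 stood at 0.511 and 0.456 times Tgfbr2 in Trim28 KO, against 0.434 and 0.548 times in WT, and these ranges overlapped. Tgfbr3 stood at 0.281 and 0.338 times Tgfbr2 in Trim28 KO, against 0.512 and 0.648 times in WT. The share of Tgfbr3 in the per-length sum of the 3 receptor genes was 15.7% and 18.8% in Trim28 KO, against 26.3% and 29.5% in WT (exact permutation p = 0.333, the smallest this design allows). The summed level of the 3 receptor genes was 17.8 and 20.7 FPKM in Trim28 KO, against 26.8 and 27.4 FPKM in WT.

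Of the 4 LTBP genes, Ltbp1 rose and the other 3 were not called. Ltbp1 encodes a matrix anchor of latent TGF-beta and was the lowest of the 4 per length. It had 82.5 and 111 CPM in Trim28 KO, against 63.6 and 65.2 CPM in WT. The WT libraries were close to each other, and the difference between the Trim28 KO libraries was larger than the gap from Trim28 KO 1 to WT. The rise was 1.51-fold (0.59 ± 0.20 on the log2 scale, SE with 2 libraries a genotype, edgeR adjusted p = 0.0439). The call was lost without Trim28 KO 2 (log2 fold change of 0.36, adjusted p = 0.363), without WT 1 (0.59, adjusted p = 0.0786) and with upper-quartile scaling (0.56, adjusted p = 0.0536, all edgeR).

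Ltbp1 lies on chromosome 17 (plus strand, 75005568 to 75392512) and has more than 1 start, from which a long and a short form of the protein are known to arise. The counts are per gene and do not separate these forms. Both start regions in the RefSeq table are shown because they differ in the same marked letters, at chr17:75005279-75005578 (upstream) and chr17:75178531-75178830 (downstream), both plus strand. Capitals mark the same 4 motifs as above.
Ltbp1 upstream start: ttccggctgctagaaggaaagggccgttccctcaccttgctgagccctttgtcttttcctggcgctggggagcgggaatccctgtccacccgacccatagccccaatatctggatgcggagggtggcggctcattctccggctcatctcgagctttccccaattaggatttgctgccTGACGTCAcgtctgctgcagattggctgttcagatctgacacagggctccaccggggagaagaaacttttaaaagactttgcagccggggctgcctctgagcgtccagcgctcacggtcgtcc
Ltbp1 downstream start: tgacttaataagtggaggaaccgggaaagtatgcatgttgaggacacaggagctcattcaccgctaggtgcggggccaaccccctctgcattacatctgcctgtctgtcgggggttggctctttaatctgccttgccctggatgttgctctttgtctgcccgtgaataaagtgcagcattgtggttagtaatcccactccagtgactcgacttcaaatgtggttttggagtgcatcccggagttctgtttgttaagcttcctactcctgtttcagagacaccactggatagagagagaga
The upstream window holds the palindrome TGACGTCA at position -73 and none of the other 3 motifs. The downstream window holds none of the 4.

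Ltbp3 encodes the LTBP whose loss in mice is known to alter the skeleton, and Ltbp4 the one tied to elastic fibre assembly. Ltbp3 had 496 and 513 CPM in Trim28 KO, against 532 and 376 CPM in WT. Ltbp4 had 237 and 261 CPM in Trim28 KO, against 354 and 213 CPM in WT. For both genes the Trim28 KO libraries lay within the range of the WT libraries, which were far apart. The log2 fold changes were 0.15 for Ltbp3 (95% interval from -0.30 to 0.60) and -0.19 for Ltbp4 (-0.66 to 0.29).

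Ltbp2, the LTBP that does not bind latent TGF-beta, had 93.4 and 130 CPM in Trim28 KO, against 145 and 104 CPM in WT. The genotypes overlapped, and the log2 fold change was -0.16 (95% interval from -0.61 to 0.29). The signs of Ltbp2, Ltbp3 and Ltbp4 changed when 1 library was left out. Ltbp2 was 0.12 without WT 1 and 0.07 without Trim28 KO 1, Ltbp3 was -0.05 without WT 2, and Ltbp4 was 0.25 without WT 1, all on the log2 scale. The summed level of the 4 LTBP genes was 110 and 123 FPKM in Trim28 KO, against 137 and 93.3 FPKM in WT.

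**Figure D3:**
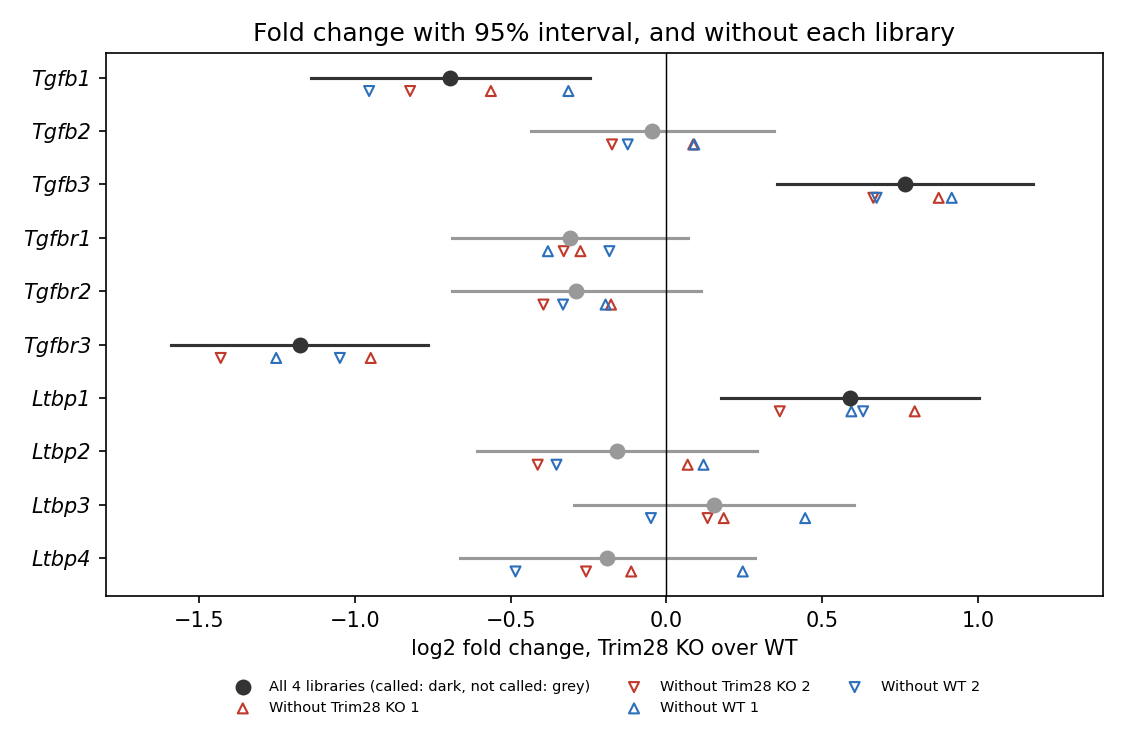
Log2 fold change of each gene, Trim28 KO over WT, with its 95% interval (line) from edgeR's quasi-likelihood fit to all 4 libraries, and the value without each library in turn (triangles). Tgfbr3 lies furthest from 0 at -1.18, Tgfb1 ranges from -0.95 to -0.31 without 1 library, and Tgfb2, Ltbp2, Ltbp3 and Ltbp4 have triangles on both sides of 0.

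Some of the genes lie near one another. On chromosome 7, Tgfb1 and Ltbp4 (27305136 to 27337692, minus strand) are 1.6 Mb apart, and Tgfb1 fell while Ltbp4 was not called. On chromosome 12, Tgfb3 and Ltbp2 (84783212 to 84876532, minus strand) are 1.18 Mb apart, and Tgfb3 rose while Ltbp2 was not called. Ltbp3 lies on chromosome 19 (plus strand, 5740904 to 5758532). Within 500 kb of the called genes, 2 of 9 tested neighbours of Tgfb3 were higher (Erg28 and Ift43) and none was lower. Around Tgfbr3, 3 of 10 were lower and none was higher. They were Cdc7, Gfi1 and Gm43422, and Gm43422 overlaps Tgfbr3 itself on the same strand. Around Tgfb1, 2 of 25 were higher and 2 lower, and around Ltbp1, 0 of 4 were called. Over all genes tested 8.64% were higher and 8.77% lower. Uncalled genes of the 10 had called neighbours too. Around Ltbp3, 8 of 54 were higher and 2 lower. Around Ltbp2 it was 1 and 2 of 25, around Ltbp4 1 and 2 of 23, and around Tgfbr2 0 and 1 of 2. Tgfb2 and Tgfbr1 had none. These neighbours were looked at after their values were known.

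The other genes of the pathway were taken from 6 lists, without the 10 genes above. The lists were chosen with earlier results of these data known, so their share of calls is a description and not a test. Of 86 tested, 11 rose and 16 fell, together 31.4%, against 17.4% of all genes tested (8.64% higher and 8.77% lower). Their median log2 fold change was -0.09. Of the 27 called, 11 kept the call without each library in turn. Among them were Mstn, Gdf15 and Tgfbi, which were higher, and Inha, Prg4, Mmp9, Postn, Smad3, Itgb3 and Aspn, which were lower.

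Among 17 tested partners in ligand latency and activation, 1 rose and 2 fell, with a median log2 fold change of -0.08. Together they are 17.6% of the list, close to the 17.4% called over all genes tested. Fbn2, a fibrillin of the microfibrils that LTBPs bind in the embryo, rose (0.89 ± 0.21, adjusted p = 0.00432 by edgeR; 0.77 and adjusted p = 0.0522 without Trim28 KO 2). Mmp9, a protease known to release latent TGF-beta (-3.56 ± 0.24), and Itgb3, the beta 3 chain of an integrin that binds the latent complex (-1.74 ± 0.23), fell. Mmp9 is also 1 of the 6 osteoclast markers, and Itgb3 is known to be abundant in osteoclasts. These markers summed to 226 and 225 CPM in Trim28 KO, against 1010 and 838 CPM in WT, with 5 of the 6 lower, none higher and none at 0 in all libraries. Without Mmp9 the other 5 summed to 182 and 166 CPM in Trim28 KO, against 326 and 322 CPM in WT. Their part in the values was not tested. Fn1, the most abundant uncalled partner, encodes fibronectin and had a log2 fold change of -0.09.

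Among 14 other tested receptors and co-receptors of the superfamily, 3 rose and 3 fell, with a median of 0.08. Together they are 42.9% of those tested, against 17.4% over all genes tested. Bambi, a decoy receptor without a kinase (0.78 ± 0.21), Vasn, a membrane protein known to bind TGF-beta (0.75 ± 0.20), and the BMP receptor gene Bmpr1b (0.74 ± 0.21) rose. Cd109, a TGF-beta co-receptor that dampens signalling (-0.78 ± 0.22), the activin receptor gene Acvr2b (-1.17 ± 0.35) and Tgfbr3l, a relative of Tgfbr3 (-1.69 ± 0.56), fell. None of these 6 kept its call in every fit that left out 1 library. The call was lost without Trim28 KO 1 for Bambi (0.53), Cd109 (-0.59), Bmpr1b (0.86), Acvr2b (-1.05) and Tgfbr3l (-1.51). It was lost without Trim28 KO 2 for Vasn (0.67), Bmpr1b (0.63), Acvr2b (-1.29) and Tgfbr3l (-1.88). It was lost without WT 1 for Bmpr1b (0.58) and Acvr2b (-0.90), and without WT 2 for Vasn (0.68), Cd109 (-0.49) and Tgfbr3l (-1.03). Tgfbr3l had 6 and 8 counts in Trim28 KO, against 14 and 31 in WT. More than 50% of its exon bases (52.2%) are shared with Gm49320, so its value is uncertain, and it was not called by DESeq2 (adjusted p = 0.195). Acvr2b was not called by DESeq2 either (adjusted p = 0.0770). Gipc1, the most abundant uncalled gene of this list and a partner of the TGFBR3 tail, had a log2 fold change of 0.07.

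Among 19 SMAD transducers and inhibitors, none rose and 3 fell, with a median of -0.18. The 3 are 15.8% of the list, close to the 17.4% called over all genes tested. Smad3, which carries the TGF-beta signal to the nucleus, had 23.1 and 38.0 CPM in Trim28 KO, against 65.8 and 72.0 CPM in WT. It fell by 1.17 ± 0.22 on the log2 scale (edgeR adjusted p = 6.58e-04), and by 0.85 without Trim28 KO 1 and 1.57 without Trim28 KO 2. Smad2, the other such transducer, had 44.1 and 51.4 CPM in Trim28 KO, against 37.4 and 43.5 CPM in WT, and was not called (0.24). The shared partner Smad4 (-0.16) and the feedback inhibitor Smad7 (-0.38) were not called. Smad7 depended on the WT libraries, at -0.64 without WT 2, where it was called (edgeR adjusted p = 0.0294), and at -0.0027 without WT 1. Smad2, Smad4 and Smad7 were named after their values were seen. The ubiquitin ligase genes Smurf2 (-0.64 ± 0.20) and Wwp2 (-0.71 ± 0.22) also fell. Both lost their calls without either Trim28 KO library (-0.74 to -0.54 for Smurf2 and -0.82 to -0.58 for Wwp2), and further without WT 1 for Smurf2 (-0.44) and without WT 2 for Wwp2 (-0.49). Strap, the most abundant uncalled gene of this list and a receptor-associated protein, had a log2 fold change of 0.16.

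Genes known to respond to TGF-beta moved in both directions. Of 25 tested, 3 rose, 6 fell and 16 were not called, with a median of -0.18. Calls made up 36% of those tested, against 17.4% over all genes tested. Among those that rose were Tgfbi, a secreted matrix protein induced by TGF-beta (1.59 ± 0.22), and the cell cycle inhibitor gene Cdkn2b (1.37 ± 0.33). Prg4, the joint lubricant (-3.56 ± 0.30), Col1a1 (-1.53 ± 0.32), Col3a1 (-1.19 ± 0.27), Postn, or periostin (-1.15 ± 0.24), Klf10, an early response transcription factor (-0.85 ± 0.19), and Ccn2, or connective tissue growth factor (-0.83 ± 0.22), fell. Without Trim28 KO 1, 5 calls were lost, those of Col1a1 (-1.29), Col3a1 (-0.88), Klf10 (-0.77), Ccn2 (-0.56) and Cdkn2b (1.20). The Cdkn2b value was 2.09 without WT 1 and 0.93 without WT 2. Col1a2, the most abundant uncalled gene of the list (-0.72), was called by DESeq2 (adjusted p = 0.00841) and by edgeR with no filter (adjusted p = 0.0468). In Ccn2, 23.2% of exon bases are shared with an antisense locus.

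Of the 6 response genes that fell, 3 (Col1a1, Col3a1 and Postn) are also markers of osteoblasts or of perichondrium and fibroblasts. All 6 perichondrium and fibroblast markers were lower in Trim28 KO, where they summed to 5514 and 6973 CPM, against 14375 and 13525 CPM in WT. Of 6 osteoblast markers 5 were lower, and the sixth, Bglap, was not called, with 1.70 and 2.31 CPM in Trim28 KO, against 0.531 and 1.21 CPM in WT. Col1a1 made up 95.1% to 97.4% of the summed level of the 6, so the sum is given without it. The other 5 summed to 216 and 339 CPM in Trim28 KO, against 1039 and 1098 CPM in WT. Of 8 macrophage markers 5 were higher and none lower, with sums of 334 and 206 CPM in Trim28 KO, against 109 and 110 CPM in WT. No marker of these 3 lists was at 0 in all libraries. Their part in the values of Tgfb1, Tgfbr3 and the response genes was not tested.

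Of the other marker lists, that of red blood cells was lower in Trim28 KO in 4 of 5 genes and that of smooth muscle in 2 of 5. The 5 endothelial markers, cells in which TGF-beta receptors are known to be active, summed to 271 and 319 CPM in Trim28 KO, against 373 and 339 CPM in WT, and none was called. The 5 platelet and megakaryocyte markers summed to 22.0 and 13.2 CPM in Trim28 KO, against 12.3 and 12.1 CPM in WT. Of these Pf4 was called higher, with 17.7 and 9.33 CPM in Trim28 KO, against 4.83 and 6.16 CPM in WT. Itga2b (-0.71) and Gp1ba (-0.93) were not called, although both Trim28 KO libraries were lower, and the other 2 were not tested. The smooth muscle markers summed to 96.5 and 83.8 CPM in Trim28 KO, against 115 and 147 CPM in WT. Those of skeletal muscle summed to 729 and 334 CPM in Trim28 KO, against 539 and 656 CPM in WT. Of the skeletal muscle markers, Myog was called higher (1.39) and Tnnt3 lower (-0.91), and the others were not called. Without Tnnt3 the sums were 482 and 177 CPM in Trim28 KO, against 144 and 291 CPM in WT. The red blood cell markers summed to 53.2 and 58.4 CPM in Trim28 KO, against 182 and 249 CPM in WT.

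Matrix proteins that bind TGF-beta were mostly uncalled. Of 9 tested, Tgfbi rose, as given above, Aspn fell and 7 were not called, with a median of -0.02. Called genes were 22.2% of the list, against 17.4% of all genes tested. Aspn encodes asporin, a small proteoglycan of perichondrium that inhibits TGF-beta in cartilage (-1.33 ± 0.21). Col2a1, the most abundant of the uncalled ones, had a log2 fold change of -0.02.

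The list for the activin, inhibin and nodal branch holds both ligands and antagonists. Of 10 tested genes, 4 rose and 1 fell, with a median of 0.29. The called genes were 50% of those tested, against 17.4% over all genes tested. These calls are not a count of ligands that act through SMAD proteins, and no SMAD signal was measured. Mstn, or myostatin (2.11 ± 0.42), Gdf15, a ligand induced by stress (1.68 ± 0.30), the nodal inhibitor gene Lefty1 (0.91 ± 0.29) and the activin-binding gene Fstl3 (0.89 ± 0.28) rose, and the inhibin subunit gene Inha fell (-1.08 ± 0.24). All 5 were low, at 10.4 CPM or less in every library. Lefty1 lost its call without any 1 of the 4 libraries (0.80 to 1.02) and by DESeq2 (adjusted p = 0.0849). Fstl3, with 47.3% of its exon bases shared with Prss57, lost it without WT 2 (0.52) or either Trim28 KO library and by DESeq2 (adjusted p = 0.0699), and its value was 1.45 without WT 1. Fstl1, the most abundant uncalled gene of this list, had a log2 fold change of 0.10.

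**Figure D4:**
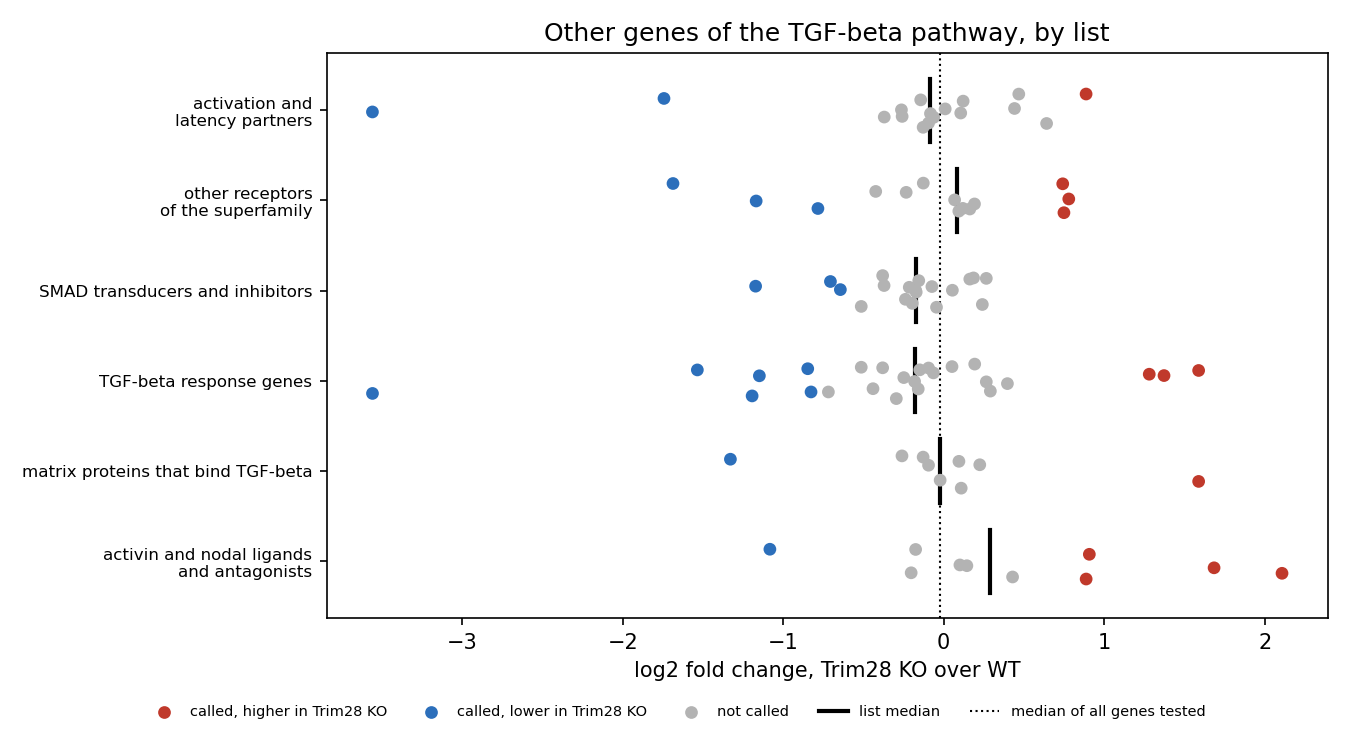
Log2 fold change, Trim28 KO over WT, of the tested genes of 6 pathway lists; points are genes (red called higher, blue called lower, grey not called), black bars are list medians and the dotted line is the median of all genes tested. The response list has 3 called higher and 6 called lower, on both sides of the median of all genes tested.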

How the data were processed

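Per the file headers, the authors counted fragments of paired-end reads over exons with featureCounts 1.6.4, by gene name on GENCODE M23 of mm10, and deposited raw counts; no option for strand, multi-mapping or overlapping genes was set. The aligner is not given in the sources used here. Exon lengths came from the same table and equalled those of GENCODE M21 on GRCm38, the same assembly, for all 10 genes. Bases shared with another gene were found in M21.

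The test of Trim28 KO over WT was edgeR's quasi-likelihood F-test with TMM factors (0.939 to 1.04), filterByExpr and robust dispersions, run in R 4.3.3 with edgeR 4.0.16 and limma 3.58.1. P-values were adjusted by Benjamini-Hochberg over all 16639 genes tested, and calls were made under 0.05. SE is the log2 fold change divided by the square root of F; intervals are 95%. A count of 3 was 0.151 to 0.159 TMM-scaled CPM, counting error only. The steps were tested on simulated counts. The members and lists were chosen with earlier results of these data known. Named were the 10 genes, Trim28, every called list gene except 1 that is not reported here, and the uncalled gene of each list with the highest level. Alternatives were other scalings and filters, DESeq2 1.42.0, limma-voom, a test against a 2-fold change, a replicate block and leaving out each library.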

Additional observations from a re-analysis of the deposited data

How the results depend on the processing

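Tested against a minimum change of 2-fold (glmTreat), 0 of the 10 genes were higher and 0 lower, as were 214 and 175 of all genes and 0 and 3 of the pathway list genes. With no minimum change, 2 and 2 of the 10 genes were called. Upper-quartile scaling left 1 gene of the 10 higher. Leaving out 1 library gave 0 to 2 of the 10 genes higher and 1 to 2 lower, 702 to 1442 and 572 to 1406 of all genes, and 6 to 12 and 7 to 15 of the list genes. The lowest counts over all genes came without Trim28 KO 1. The 4 calls among the 10 genes also held with RLE factors, library size alone, no filter, a stricter filter (5 CPM in 2 libraries), DESeq2 and limma-voom. Some uncalled genes changed sign. With library size alone, Tgfb2 was 0.0223 and Col2a1 0.0501, and with no filter Col2a1 was 0.00419. Without 1 library the log2 fold change ranged from -0.17 to 0.0894 for Tgfb2, -0.41 to 0.12 for Ltbp2, -0.0497 to 0.45 for Ltbp3, -0.48 to 0.25 for Ltbp4, -0.32 to 0.11 for Fn1, -0.13 to 0.35 for Gipc1, -0.23 to 0.28 for Col2a1, -0.0298 to 0.27 for Fstl1 and -0.25 to 0.000808 for Smad4. The labels do not pair the samples, and libraries of the same number did not deviate together (correlation of -0.08). With the replicate number as a block, 2 of the 10 genes were higher and 2 lower, as were 1477 and 1444 of all genes and 12 and 15 of the list genes; Tgfbr3l lost its call (adjusted p = 0.0561 by edgeR). The causes of these changes were not tested. With 2 libraries per genotype the 95% intervals of uncalled genes among the 10 reached as far as 0.69 from 0 on the log2 scale, and the data do not tell values within them apart. Share differences for the 10 genes kept their sign without each library.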
